A study of Rattus norvegicus with 18 samples.

Results

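All 9 retinas taken after an exposure to bright light (LD, PBMLD and SafLD, 3 arrays each) were set against all 9 retinas that had no such exposure (control, PBM and saffron, 3 arrays each), which together make up the 18 arrays of the series. Each exposed group was matched to the unexposed group with the same pretreatment (none, PBM or saffron) by a blocking term. The comparison therefore gives the light effect averaged over the 3 pretreatments, and it does not require a response in each of them. The animals were adult Sprague Dawley rats aged P80 to 120, an albino strain, reared in cyclic light of 5 lux, and each array carried RNA from the retina of 1 eye. LD animals were exposed to light for 24 h with no pretreatment. PBMLD animals first received 670 nm red light (photobiomodulation) for 3 min a day over 5 days, and SafLD animals took saffron by mouth over 3 weeks (1 mg/kg/day). The control, PBM and saffron animals were kept likewise without the bright light, and controls, with neither pretreatment, ate the vegetable matrix that served as vehicle for the saffron. Each retina came from a different animal, of groups that held both sexes, and the labels do not give the sex behind an array. The sample descriptions give the bright light as 1000 lux in every exposed group, while the source names of the LD samples say 100 lux and those of the SafLD samples name the exposure 2 times. Light-exposed animals were also dark-adapted overnight and caged singly, and the effects of these steps cannot be told apart from that of the light.

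The retina of an albino rat is easily injured by bright light, because rods bleach their visual pigment without the shade of ocular melanin and die over the following days. Müller cells, the radial glia that span the retina, answer such injury by making the intermediate filament GFAP, by releasing growth factors and cytokines, and by signaling through the receptor subunit gp130 and the transcription factor STAT3. Injured cells of many kinds also start early genes of the AP-1 family, and shift protein synthesis through the transcription factor ATF4, which raises the supply of amino acids and the enzymes that load them onto transfer RNA.

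Light raised many transcripts strongly and lowered few by as much. Of 29214 probe sets, 109 (0.373%) were more than 2-fold higher in the light-exposed retinas and 12 (0.0411%) were more than 2-fold lower, each with an adjusted p below 0.05 from limma. The higher calls held 93 different named genes and the lower calls 11, and the remaining 12 and 1 probe sets had no gene symbol. Without the 2-fold limit 783 probe sets (2.68%) were higher and 498 (1.7%) were lower, of which 674 and 486 were under 2-fold. The median difference over all probe sets was -0.0067 on the log2 scale. All 9 exposed arrays lay above all 9 unexposed arrays for 185 probe sets (0.633%) and below them for 116 (0.397%). Levels are log2 signals throughout, differences are light-exposed minus unexposed, and the error given is the standard error (SE) of the fit.

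The arrays did not all show the response in the same measure. Over the 109 higher calls, the median difference from the mean of the matching unexposed group was 1.27, 2.02 and 2.01 in LD 1, 2 and 3, 0.563, 1.43 and 1.13 in PBMLD 1, 2 and 3, and 1.19, 1.46 and 1.67 in SafLD 1, 2 and 3. PBMLD 1 was the lowest of the 9 exposed arrays for 73 of the 109 probe sets, and LD 3 was the highest for 44. Over the 12 lower calls LD 3 was the lowest exposed array for 9 and PBMLD 1 the highest for 8. Leaving PBMLD 1 out gave 121 higher and 16 lower calls, and leaving LD 3 out gave 98 higher and 11 lower calls. In the unexposed retinas these medians stayed between -0.073 and 0.1 for the higher calls. The probe sets were chosen by this same contrast, so the medians describe the arrays and test nothing.

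**Figure D1:**
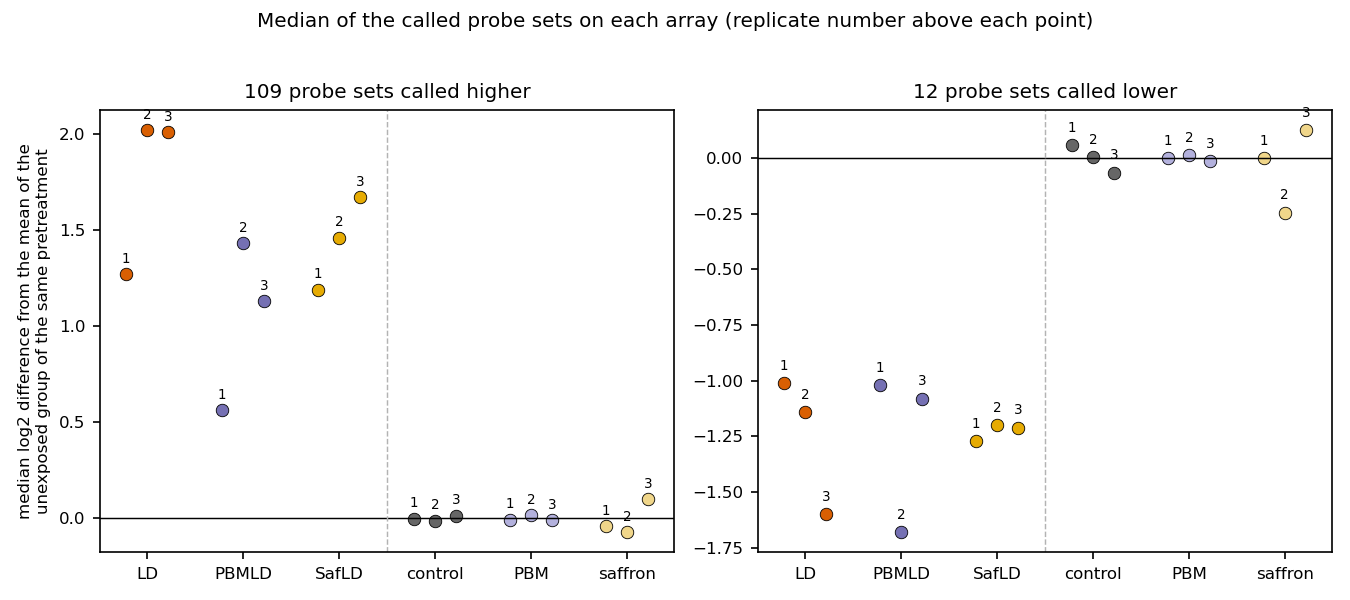
Median difference in log2 signal of the 109 higher calls (left) and the 12 lower calls (right) on each array from the mean of the unexposed group with the same pretreatment, with the replicate number above each point. All 9 light-exposed arrays lie away from 0, and PBMLD 1 is the nearest to it among the higher calls, at 0.563.

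The mean log2 signal of 20 rod genes, which define the outer retina, was between 11.1 and 11.64 on light-exposed arrays and between 11.62 and 11.81 on unexposed ones, and lens markers were also present. That of 16 crystallin and other lens markers ran from 9.09 to 11.3 on light-exposed arrays and from 9.05 to 10.6 on unexposed ones, highest in LD 1, LD 3, saffron 1 and PBMLD 1. The median difference of the lens markers was 0.874 for LD against control, 0.426 for PBMLD against PBM and -0.661 for SafLD against saffron. None of these 16 lens genes passed the test in either direction, nor did any of 7 measured blood genes or 10 pigment epithelium genes. Rpe65, the isomerase that defines pigment epithelium, was between 3.68 and 6.70 on exposed arrays and between 3.53 and 5.68 on unexposed arrays (adjusted p = 0.41). With the lens level of each array as a covariate, 27 probe sets were called lower, against 12 without it. Leaving out those 4 arrays changed several counts of list members, which are given with the lists where they moved most. The 4 include PBMLD 1, the lowest exposed array for 73 of the 109 higher calls, and LD 3, the highest for 44. Without them only 1 LD array is left. Those counts therefore mix the lens level with the strength of the response, and they do not test the lens level alone. The part that lens tissue had in any single result was not tested beyond the values given.

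Genes that supply amino acids and load them onto transfer RNA rose, several of them by similar amounts in the 3 pairs. Of 31 measured genes of ATF4 and amino acid supply, 16 were higher and 1 was lower, with a median difference of 0.41, and of 18 measured cytosolic aminoacyl-tRNA synthetases, which join each amino acid to its transfer RNA, 10 were higher and none lower (median 0.44). Over all 14506 named genes 3.89% were higher and 2.18% were lower. Asns, which makes asparagine, stood between 9.85 and 10.24 (median 10.17) on the light-exposed arrays and between 8.0 and 8.40 (median 8.24) on the unexposed ones. Every exposed retina was above every unexposed retina by more than the exposed arrays differed among themselves. The difference was 1.89 ± 0.07 (3.71-fold, adjusted p = 4.5e-12), the largest test statistic of any named gene, and it came to 1.91 for LD against control, 1.89 for PBMLD against PBM and 1.87 for SafLD against saffron.

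Tars1, the threonine synthetase, ran from 9.23 to 9.85 (median 9.58) with light and from 8.27 to 8.58 (median 8.39) without, again with no overlap. It rose by 1.15 ± 0.07 (2.22-fold, adjusted p = 2.9e-09), by 1.22, 1.05 and 1.19 in the LD, PBMLD and SafLD pairs. The cysteine, isoleucine and methionine synthetases Cars1, Iars1 and Mars1 rose by 1.09 ± 0.09, 0.97 ± 0.10 and 0.97 ± 0.11, each with its 9 exposed arrays above its 9 unexposed arrays. Mthfd2, a mitochondrial enzyme of one-carbon metabolism, was between 8.45 and 9.30 in light-exposed retinas and between 6.86 and 7.39 in unexposed retinas, a rise of 1.77 ± 0.11 (3.41-fold, adjusted p = 4.2e-09), and its other probe set rose by 2.09. Trib3, a pseudokinase that ATF4 induces and that damps it, and Gdf15, a circulating stress cytokine, rose by 1.47 ± 0.11 and 1.52 ± 0.10. Slc7a1, the carrier of arginine and lysine, rose by 1.21 ± 0.09. The transcription factor Atf4 itself was 0.35 higher, while Phgdh, the first enzyme of serine synthesis, was 0.48 lower.

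Promoters of 3 of the synthetases that rose are shown here because they hold the same 8 letters close to the start of transcription. The letters TGATGCAA, or TTGCATCA on the other strand, are the core of the element bound by ATF4 with C/EBP factors, and they occur in the 250 bases before the start in 0.611% of the 11950 named genes that have a RefSeq promoter (build GRCr8). Among 471 such genes that were higher at adjusted p below 0.05 the share was 2.76% (13 genes). Among the 75 that were more than 2-fold higher it was 2.67% (2 genes). The match starts 27 bases before the start in Tars1 (chr2:62114803-62114922, minus strand), 17 in Mars1 (chr7:65023754-65023873, minus strand) and 24 in Iars1 (chr17:15193653-15193772, minus strand). Each sequence below is the 120 bases before the start, with the match in capitals.
Tars1: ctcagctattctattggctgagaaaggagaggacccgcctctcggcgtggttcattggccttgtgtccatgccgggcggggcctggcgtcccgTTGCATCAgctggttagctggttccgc
Mars1: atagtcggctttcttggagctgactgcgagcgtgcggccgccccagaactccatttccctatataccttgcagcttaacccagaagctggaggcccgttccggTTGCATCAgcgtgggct
Iars1: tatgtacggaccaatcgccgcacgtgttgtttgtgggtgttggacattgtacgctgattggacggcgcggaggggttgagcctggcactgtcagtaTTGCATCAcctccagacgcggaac
A match describes letters and not a bound site. The search did not find these letters in this window of Asns, Cars1, Mthfd2, Trib3, Slc7a1 or Gdf15.

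Of 24 measured early response genes of the AP-1 kind, 13 were higher, 10 did not pass and 1, the phosphatase gene Dusp1, was lower, with a median difference of 0.44. Atf3, a stress-induced member that pairs with JUN, was between 7.838 and 10.004 (median 9.75) in the light-exposed retinas and between 5.74 and 6.47 (median 5.92) in the unexposed ones. PBMLD 1 was the lowest exposed array and was still above every unexposed array. The difference was 3.36 ± 0.23 (10.3-fold, adjusted p = 2.1e-08). Jun itself stood between 9.11 and 9.91 (median 9.65) with light and between 7.34 and 7.88 (median 7.77) without, a rise of 1.94 ± 0.11 (3.83-fold, adjusted p = 1.1e-09). Zfp36, whose protein speeds the decay of cytokine mRNAs, rose by 2.04 ± 0.23 and the zinc-finger factor Egr1 by 1.93 ± 0.22, both without overlap. Egr1 was 1.82, 1.06 and 2.91 higher in the LD, PBMLD and SafLD pairs and did not pass in the PBMLD pair. Without light Egr1 was between 6.44 and 6.73 in saffron and between 7.32 and 8.23 in control and PBM. The letters TGACTCA, to which AP-1 binds, were in 9.33% of the promoters of the 75 more than 2-fold higher genes with a promoter in 5.73% of those of the 471 genes higher at adjusted p below 0.05 and in 3.43% of all promoters.

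**Figure D2:**
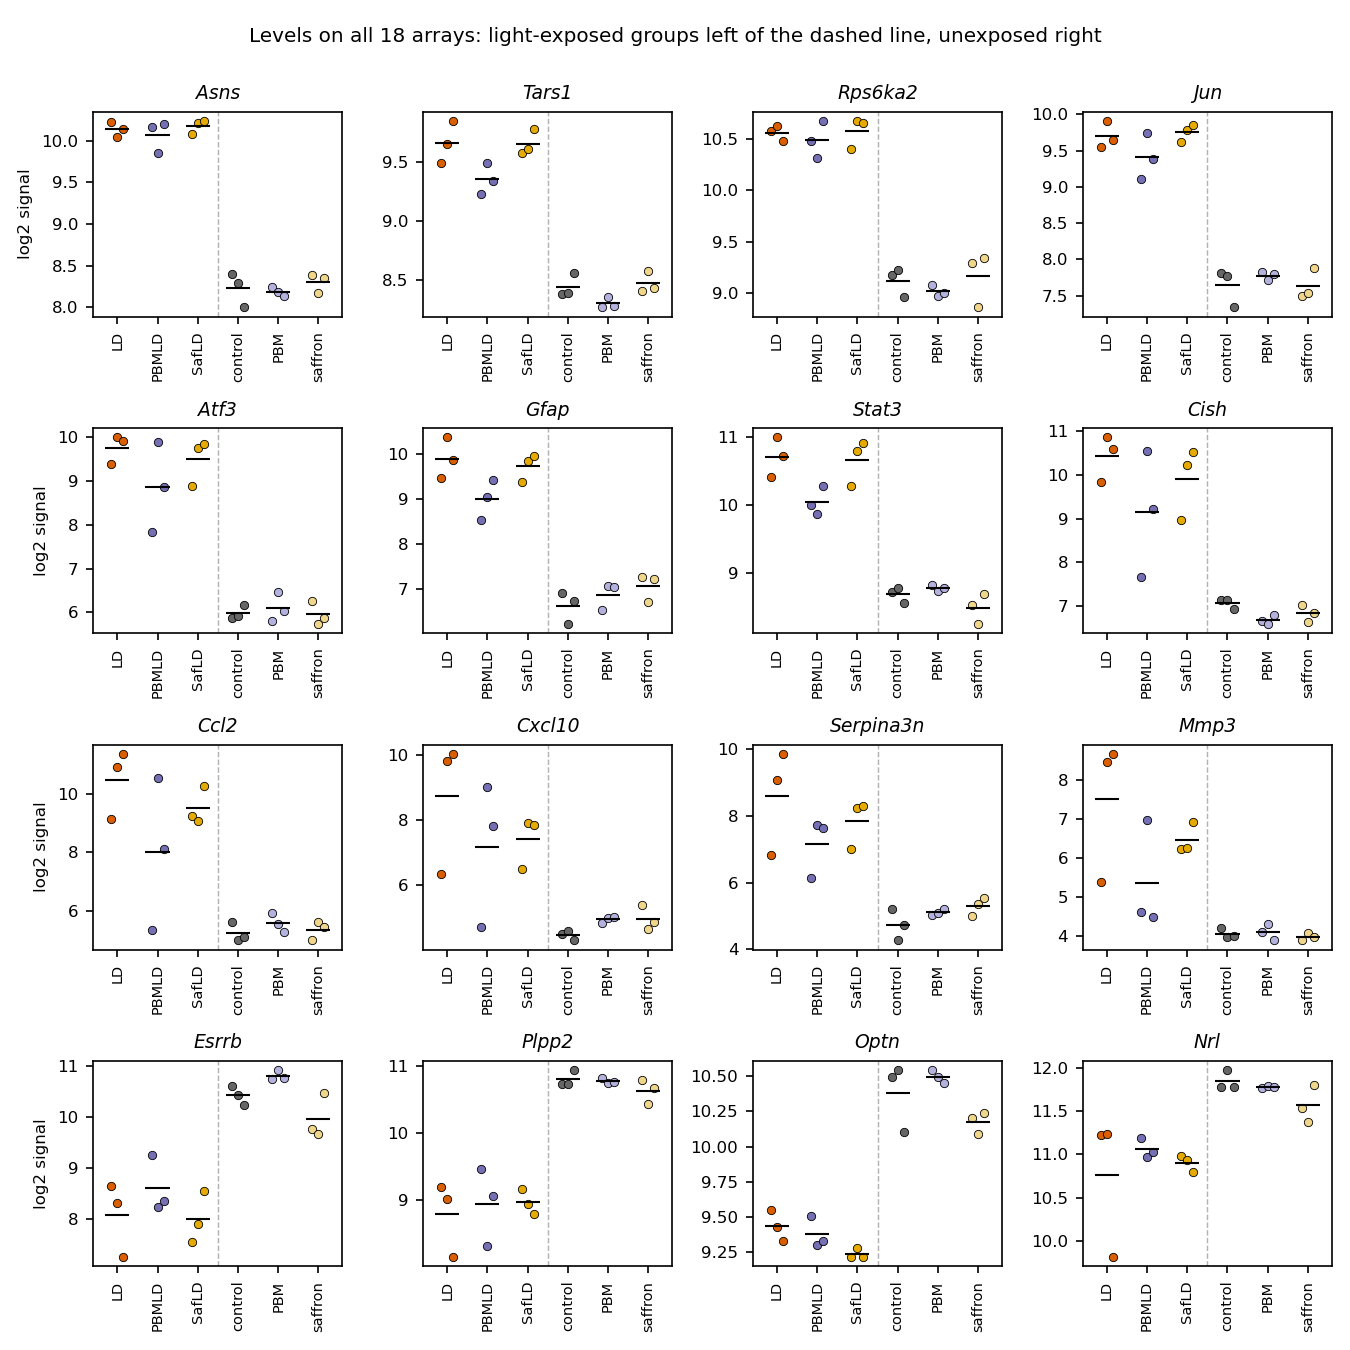
Log2 signal of 16 genes on all 18 arrays, with points for single retinas, bars for group means of 3, and the 3 light-exposed groups left of the dashed line. Asns, Tars1, Rps6ka2 and Jun are tightly grouped on both sides of the line, Ccl2, Cxcl10, Serpina3n and Mmp3 are spread widely among exposed retinas, and Esrrb, Plpp2, Optn and Nrl lie lower with light.

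Many genes of gp130 and STAT3 signaling and of the glial reaction rose. Of 22 measured gp130 and STAT3 genes 13 were higher and none lower (median 0.52), and of 19 genes of the glial reaction 13 were higher and none lower (median 0.89). Stat3 was between 9.87 and 11.00 (median 10.41) in light-exposed retinas and between 8.26 and 8.83 (median 8.73) in unexposed retinas. The ranges were well apart, and the rise was 1.82 ± 0.13 (3.53-fold, adjusted p = 6.5e-08). Socs3 and Cish, feedback inhibitors that STAT factors induce, rose by 2.49 ± 0.23 (5.6-fold) and 2.96 ± 0.29 (7.78-fold). Cish ran from 7.67 in PBMLD 1 to 10.86 in LD 2 among the exposed arrays (median 10.23), against 6.60 to 7.15 (median 6.85) among the unexposed. Cebpd, a partner factor of STAT3 in acute responses, rose by 1.21 ± 0.12 without overlap.

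Ligands and receptors of this pathway varied more between exposed retinas. Lif, the gp130 cytokine that Müller cells release, was between 5.32 and 8.78 (median 7.47) with light and between 4.90 and 5.48 (median 5.17) without. PBMLD 1 lay among the unexposed arrays and PBMLD 2 was the highest of all, so the ranges overlapped although the mean rose by 2.29 ± 0.33 (adjusted p = 0.0002). Clcf1, another ligand of this family, rose by 1.22 ± 0.19, and Osmr, the receptor chain for oncostatin M, by 2.04 ± 0.23. Osmr overlapped by 1 array, PBMLD 1 at 5.04, below the highest unexposed value of 5.26.

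The upstream bases of Cish are shown because they carry the STAT letters TTCNNNGAA 4 times. At least 1 such match was in 14.7% of the promoters of the more than 2-fold higher genes, in 9.55% of those higher at adjusted p below 0.05 and in 6.63% of all promoters. The stretch is chr8:116850719-116850868 (plus strand, GRCr8, RefSeq), from 250 to 101 bases before the start, with matches in capitals.
Cish: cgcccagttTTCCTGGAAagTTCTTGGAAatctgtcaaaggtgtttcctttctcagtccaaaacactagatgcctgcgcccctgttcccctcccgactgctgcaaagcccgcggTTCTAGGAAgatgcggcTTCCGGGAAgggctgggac
The letters read the same way on both strands, so each match was counted once. Of the genes of this pathway given above, Socs3, Stat3 and Osmr had no match in the bases searched.

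Among glial genes, Gfap stood between 8.54 and 10.37 (median 9.46) in the light-exposed retinas and between 6.23 and 7.27 (median 6.91) in the unexposed ones. All exposed retinas were above all unexposed ones, and Gfap rose by 2.69 ± 0.18 (6.45-fold, adjusted p = 2.1e-08). Serpina3n, a secreted protease inhibitor of reactive glia, ran from 6.13 to 9.86 (median 7.73) with light and from 4.27 to 5.55 (median 5.10) without, a rise of 2.81 ± 0.36 (7.03-fold). Lcn2, an iron-binding acute-phase protein, rose by 2.76 ± 0.37 with PBMLD 1 (7.49) inside the unexposed range of 6.98 to 8.32. Timp1, an inhibitor of matrix proteases, rose by 1.70 ± 0.36 (adjusted p = 0.0076), and PBMLD 1 at 6.70 was below every unexposed array.

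Of 21 measured chemokines, 9 were higher, none was lower and 12 did not pass (median 0.52), and in none of the 9 were the exposed and unexposed ranges apart. Over all 783 probe sets that were higher at adjusted p below 0.05, the ranges were apart in 184. Ccl2, which draws monocytes, was between 5.34 and 11.38 (median 9.23) on light-exposed arrays and between 4.98 and 5.90 (median 5.42) on unexposed ones. PBMLD 1 alone among the exposed retinas lay inside the unexposed range. The mean difference of 3.96 ± 0.53 (15.6-fold, adjusted p = 0.0001) was the largest of any named gene. Ccl3 rose by 2.97 ± 0.39, Ccl7 by 1.49 ± 0.31 and Cxcl10, a chemokine that interferon induces, by 2.98 ± 0.53. Cxcl10 reached 10.05 in LD 3 and 4.71 in PBMLD 1, against 4.31 to 5.38 in unexposed retinas, and its adjusted p went up to 0.0484 when the arrays of 1 pretreatment were left out.

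Of 28 measured interferon response genes, 12 were higher, none was lower and 16 did not pass, with a median of 0.70, and the count was 20 when the 4 arrays highest for lens markers were left out. Irf9, a transcription factor of the interferon response, was between 8.06 and 9.76 (median 8.88) with light and between 6.91 and 7.5 (median 7.1) without. It was the only one of the 12 whose ranges did not overlap, against 184 of all 783 higher probe sets. Irf9 rose by 1.86 ± 0.16 (3.64-fold, adjusted p = 3.9e-07). The guanylate-binding proteins Gbp2 and Gbp5 rose by 2.56 ± 0.38 and 2.01 ± 0.39, and the antiviral gene Rsad2 by 2.30 ± 0.41. In each of these 3 genes LD 3 was the highest array and PBMLD 1 the lowest exposed array. Both are among the 4 arrays left out for the count of 20, so that count does not test the lens level alone. Gbp5 did not pass in every smaller set of arrays, with an adjusted p of 0.108 at most when 1 pretreatment was left out.

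Gbp2 has the interferon letters GAAANNGAA, sought on both strands, 30 bases before its start, which is why its promoter is shown, although those letters were in 9.33% of the promoters of more than 2-fold higher genes and 6.79% of those higher at adjusted p below 0.05, against 7.07% of all promoters. The 110 bases are chr2:234005617-234005726 (plus strand, GRCr8, RefSeq), with the match in capitals.
Gbp2: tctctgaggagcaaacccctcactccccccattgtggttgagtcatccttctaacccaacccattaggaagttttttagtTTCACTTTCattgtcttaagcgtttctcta

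NF-kB genes and adhesion molecules were higher in 10 of 18 and lower in 1 (median 0.62). Tnip2, which restrains NF-kB, was between 7.61 and 8.68 (median 8.20) in light-exposed retinas and between 6.35 and 6.97 (median 6.63) in unexposed retinas. It rose by 1.55 ± 0.14 (adjusted p = 6.6e-07), with the ranges well apart. The leukocyte adhesion molecules Icam1 and Sele rose by 1.66 ± 0.21 and 1.13 ± 0.15, also without overlap. Nfkb2, which encodes a subunit of the factor, rose by 1.1 ± 0.20, but PBMLD 1 at 5.55 was below all unexposed arrays. The NF-kB letters GGGNNTTCC were in 4.0% of the promoters of the more than 2-fold higher genes. They were in 5.52% of those higher at adjusted p below 0.05 and in 5.38% of all promoters. Of 19 innate sensors and cytokines 6 were higher and none lower. Tnfrsf1a, a receptor for TNF, rose by 1.19 ± 0.20, the adaptor Myd88 by 0.93 ± 0.15, the cytokine Il1b by 0.88 ± 0.17 and the macrophage growth factor Csf1 by 0.87 ± 0.21 (adjusted p = 0.018). Litaf, an endosomal protein that endotoxin induces, was not one of these 19 genes. It was between 7.58 and 8.67 with light and between 6.14 and 6.79 without, a rise of 1.88 ± 0.14 (3.69-fold).

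Of 21 measured markers of microglia and macrophages none was higher, 1 was lower and the median difference was 0.0064. Without the 4 arrays highest for lens markers 2 were higher. The mean log2 signal of the list was between 5.36 and 5.81 on light-exposed arrays and between 5.36 and 5.64 on unexposed ones. These means were below the array medians, which were between 6.122 and 6.195, so a change in markers of low signal may have been missed. The 1 lower gene was P2ry12, the purine receptor of resting microglia, which ran from 4.62 to 5.52 (median 5.12) with light and from 5.46 to 6.30 (median 5.77) without. It fell by 0.70 ± 0.14 on the log2 scale (adjusted p = 0.0049), with 2 exposed arrays, PBMLD 1 and LD 1, reaching into the unexposed range. Of 13 complement genes C3ar1, a receptor for the C3a fragment, was 0.41 ± 0.10 higher and Cd59b, an inhibitor of the terminal complex, 0.57 ± 0.07 lower (adjusted p = 2.1e-05). C3ar1 did not pass without LD 3, SafLD 2 or saffron 3, where its adjusted p reached 0.0621. In bulk retina, fewer cells of a kind and less RNA in each cell cannot be told apart, here and for every list below.

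The antioxidant list gave no common direction, with 6 of 27 higher, 2 lower (none without the 4 arrays highest for lens markers) and a median of -0.055, and the genes that rose most were for metal and heme. Mt2A, a metallothionein that binds zinc and copper, was between 9.40 and 12.24 (median 11.15) in light-exposed retinas and between 8.38 and 9.08 (median 8.75) in unexposed ones. It rose by 2.33 ± 0.25 (5.02-fold, adjusted p = 8.5e-06) without overlap. Mt1 rose by 1.64 ± 0.20, and its ranges met at 9.46 in PBMLD 1 and 9.47 in control 3. The metallothioneins are near-identical copies and their probes can share signal. Hmox1, which breaks down heme, rose by 1.47 ± 0.26 and lay between 5.33 and 8.0 with light and between 4.55 and 5.19 without. Nfe2l2, the master factor of oxidant defense, rose by 0.85 ± 0.13, while Gpx3, a secreted glutathione peroxidase, fell by 0.59 ± 0.14 (adjusted p = 0.016). Without light Gpx3 was between 7.98 and 8.35 in PBM and between 8.74 and 9.02 in control and saffron. With light it was between 7.49 and 8.39 in PBMLD and between 7.3 and 8.43 in LD and SafLD.

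Upstream stretches of Mt1 and Mt2A are shown because they carry the metal response letters TGCACNC or TGCGCNC 6 and 4 times. These letters are common, present in 30.7% of the promoters of the more than 2-fold higher genes, in 32.9% of those higher at adjusted p below 0.05 and in 27% of all promoters. Both genes lie on chromosome 19, minus strand, Mt1 at chr19:10832996-10833155 and Mt2A at chr19:10838739-10838938 (GRCr8, RefSeq), and matches are in capitals.
Mt1: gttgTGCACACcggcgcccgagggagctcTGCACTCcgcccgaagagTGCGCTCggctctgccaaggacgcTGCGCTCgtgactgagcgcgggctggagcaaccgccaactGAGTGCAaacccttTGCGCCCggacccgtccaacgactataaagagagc
Mt2A: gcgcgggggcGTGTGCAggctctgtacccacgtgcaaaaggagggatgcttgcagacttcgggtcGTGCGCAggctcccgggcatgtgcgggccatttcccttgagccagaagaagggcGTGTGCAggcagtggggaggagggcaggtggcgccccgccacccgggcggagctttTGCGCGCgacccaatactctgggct

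Of 16 heat shock genes and chaperones 4 were higher and none lower, and 2 were higher without the 4 arrays highest for lens markers. Hsph1 and Dnajb1, which work with the chaperone HSP70, rose by 0.53 ± 0.12 and 0.39 ± 0.09, and Dnajb9, its partner in the endoplasmic reticulum, by 0.32 ± 0.07. Hspb1, a small heat shock protein also present in lens, was 1.41 ± 0.36 higher (adjusted p = 0.027), but by 2.57 in the LD pair, 1.59 in the PBMLD pair and 0.06 in the SafLD pair. Its call was also lost without any 1 of 7 single arrays (adjusted p up to 0.0586). The adjusted p reached 0.352 when 1 pretreatment was left out, and the difference was 1.03 with the lens level as a covariate. The lens markers ran the same way over the pairs (0.874, 0.426 and -0.661), and their part in this result was not tested further.

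Among survival and injury signals 7 of 19 were higher and 1 lower. Fgf2, a growth factor that protects photoreceptors, was between 6.91 and 8.44 (median 7.97) with light and between 5.55 and 6.75 (median 6.13) without, a rise of 1.76 ± 0.21 (3.38-fold, adjusted p = 2.3e-05). Edn2, the endothelin that injured photoreceptors release toward glia, rose by 0.89 ± 0.12, and its lowest exposed value of 6.24 was above its highest unexposed value of 6.11. Of 25 cell death genes 6 were higher and none lower. The death receptor Fas rose by 0.98 ± 0.24 (adjusted p = 0.023), the kinase Ripk1 by 0.80 ± 0.11, the stress gene Gadd45g by 0.73 ± 0.15 and the survival gene Mcl1 by 0.72 ± 0.09, and Mcl1 alone of these 4 had ranges that did not overlap. The other probe set of Mcl1 differed by 0.132.

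Matrix genes moved in both directions. Of 20 measured 7 were higher and 1 lower, and the largest rise was that of the protease Mmp3, which ran from 4.48 to 8.67 (median 6.26) in light-exposed retinas and from 3.89 to 4.30 (median 3.99) in unexposed retinas. Mmp3 rose by 2.40 ± 0.42 (5.28-fold, adjusted p = 0.0015), though its adjusted p reached 0.0712 when 1 pretreatment was left out. Adamts1, a protease of proteoglycans, and Chsy1, which builds chondroitin chains, rose by 1.31 ± 0.14 and 1.13 ± 0.08, both without overlap. Lamb3, a laminin chain, was the 1 matrix gene that was lower, between 5.90 and 6.68 (median 6.24) with light and between 7.08 and 7.63 (median 7.30) without. It fell by 1.11 ± 0.11 on the log2 scale (adjusted p = 1.7e-06), by nearly the same amount in the 3 pairs (-1.08 in LD, -1.1 in PBMLD and -1.14 in SafLD).

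**Figure D3:**
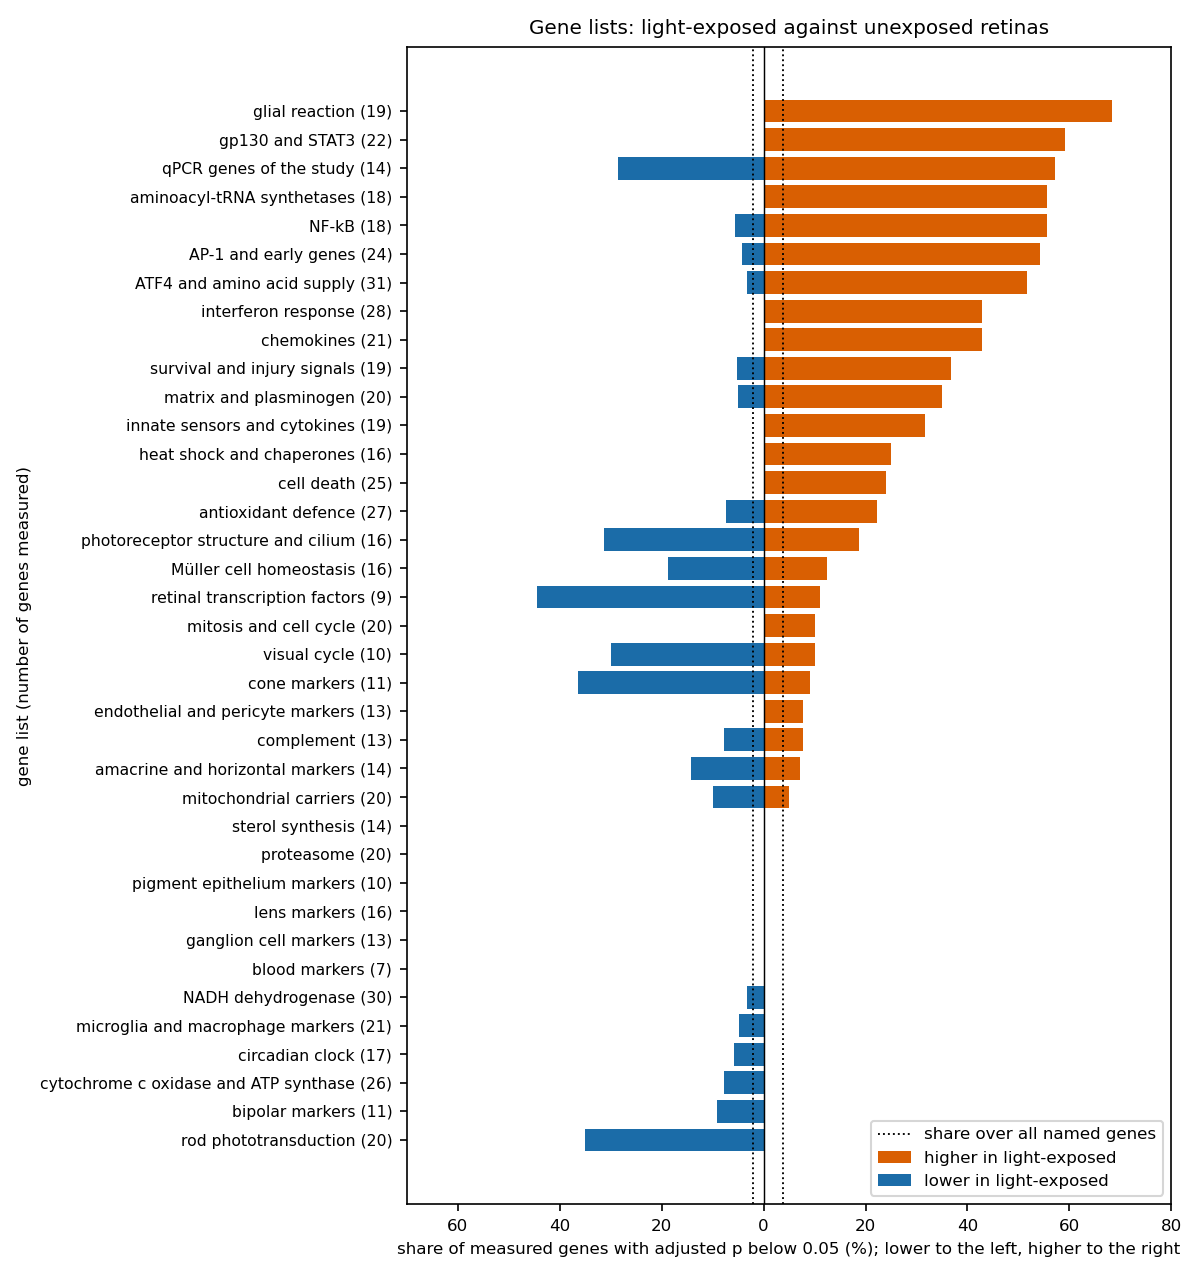
Share of the measured genes of each list with an adjusted p below 0.05, higher in light-exposed retinas to the right and lower to the left, with dotted lines at the share over all 14506 named genes (3.89% higher, 2.18% lower). Lists of glial, cytokine, AP-1, NF-kB and amino acid genes extend to the right, and rod, cone and retinal transcription factor lists extend to the left.

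Some photoreceptor genes were lower, by modest amounts. Of 20 measured genes of rod phototransduction 7 were lower, none was higher, 13 did not pass and the median difference was -0.24, and of 11 cone genes 4 were lower and 1 higher (median -0.30). No gene of either list fell by more than 2-fold. Rcvrn, the calcium sensor recoverin, stood between 11.90 and 12.55 (median 12.28) on light-exposed arrays and between 12.85 and 12.97 (median 12.91) on unexposed ones. The 9 unexposed retinas lay close together, and all exposed ones were below them. Rcvrn fell by 0.60 ± 0.07 on the log2 scale (adjusted p = 1.7e-05). Pdc, which holds transducin subunits, fell by 0.57 ± 0.08 and Cngb1, a subunit of the rod cation channel, by 0.74 ± 0.11, both without overlap. Slc24a1, the rod sodium, calcium and potassium exchanger, fell by 0.73 ± 0.18 (adjusted p = 0.02) and LD 3 was its lowest array at 9.90.

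In cones, Gnat2, the cone transducin, fell by 0.55 ± 0.08 with ranges of 9.77 to 10.33 in light-exposed retinas and 10.49 to 11.01 in unexposed retinas. Pde6h, a cone phosphodiesterase subunit, fell by 0.67 ± 0.11, the channel subunit Cngb3 by 0.60 ± 0.12 and Opn1sw, the short-wavelength opsin, by 0.52 ± 0.12 (adjusted p = 0.018). The 1 cone gene that was higher was Pde6c, by 0.44. Of 10 visual cycle genes 3 were lower. The dehydrogenases Rdh11 and Rdh12 fell by 0.53 ± 0.08 and 0.64 ± 0.14 and the retinoid carrier Rbp3 by 0.58 ± 0.11. Rdh10, another dehydrogenase of retinoids, rose by 1.18 ± 0.19 (adjusted p = 0.00077).

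The letters TAATCC, read by the photoreceptor factor CRX and its relative OTX2, were in 9.67% of the promoters of the 269 genes that were lower at adjusted p below 0.05, against 4.03% of those of the 471 genes that were higher and 5.72% of all promoters. Cngb1 is shown as a gene that fell and holds them 2 times within 62 bases of its start (chr19:9732556-9732645, plus strand, GRCr8, RefSeq, 90 bases, matches in capitals).
Cngb1: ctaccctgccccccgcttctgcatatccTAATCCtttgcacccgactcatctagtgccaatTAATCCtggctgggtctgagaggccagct

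Larger falls came from genes outside the rod and cone lists. Esrrb, an orphan nuclear receptor of rods, was between 7.27 and 9.26 (median 8.33) in light-exposed retinas and between 9.68 and 10.92 (median 10.47) in unexposed retinas. No exposed retina reached an unexposed one, and the difference of -2.16 ± 0.19 (0.223 of the unexposed level, adjusted p = 4.8e-07) was the largest decrease of any named gene. Plpp2, a lipid phosphatase, ran from 8.15 to 9.46 (median 9.02) with light and from 10.44 to 10.94 (median 10.75) without. Its ranges were well apart, and it fell by 1.84 ± 0.14 on the log2 scale (0.280 of the unexposed level, adjusted p = 1.3e-07). Reep6, which shapes membranes of the rod endoplasmic reticulum, fell by 1.31 ± 0.14 and the ceramide kinase Cerk by 1.17 ± 0.13.

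Of 9 measured retinal transcription factors 4 were lower, among them Nrl, the factor that sets rod identity, which fell by 0.82 ± 0.15 (adjusted p = 0.0019), and Mef2d, its partner at rod genes, which fell by 0.45 ± 0.10. Nrl was 9.82 in LD 3 and 10.80 or more in every other exposed array, against 11.37 to 11.97 in the unexposed. Neurod1 was the 1 member that rose, by 0.54 ± 0.07, and its 9 exposed arrays were all above its 9 unexposed arrays. Of 16 genes of photoreceptor structure 5 were lower, including the disc protein Rom1 (-0.60 ± 0.10) and the retinal transporter Abca4 (-0.50 ± 0.09). Of the 16, 3 were higher, and Fscn2, which bundles actin in photoreceptors, rose by 0.84 ± 0.08 (adjusted p = 1.4e-06), between 10.52 and 11.17 with light and between 9.84 and 10.17 without.

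Other lower genes had varied roles. Miox, which breaks down inositol, was between 5.87 and 6.69 with light and between 7.21 and 7.68 without, and fell by 1.13 ± 0.10. Tmem116, a membrane protein, and Fabp12, a fatty acid binding protein of the retina, fell by 1.05 ± 0.09 and 1.04 ± 0.16. Optn, whose protein optineurin takes part in autophagy, was just inside the 2-fold limit. It stood between 9.22 and 9.55 (median 9.33) on light-exposed arrays and between 10.09 and 10.54 (median 10.45) on unexposed ones, and it fell by 1.00 ± 0.07 (0.502 of the unexposed level, adjusted p = 3e-08).

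Genes by which Müller cells keep water, potassium and transmitter in balance had no common direction, with 2 of 16 higher, 3 lower (1 without the 4 arrays highest for lens markers) and a median of -0.03. Aqp1, a water channel that photoreceptors also have, was between 8.15 and 9.37 (median 8.62) in light-exposed retinas and between 9.35 and 10.29 (median 9.82) in unexposed retinas. Only SafLD 1 reached the unexposed range, and Aqp1 fell by 1.21 ± 0.13 (adjusted p = 6.3e-06). Hes1, a factor of the Notch pathway, fell by 0.42 ± 0.10. Slc14a1, a urea transporter, rose by 1.24 ± 0.13 without overlap, and Crym, which binds thyroid hormone, by 0.42 ± 0.09.

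Few markers of inner retinal neurons and vessels passed. In the LD pair the medians were -0.105 for bipolar, -0.295 for amacrine and horizontal, -0.243 for ganglion cell and -0.257 for vessel genes. Those of rod and cone genes were -0.278 and -0.274 in that pair. The 4 inner retinal and vessel medians were between -0.0147 and 0.0104 in the PBMLD pair and between -0.067 and 0.114 in the SafLD pair. None of 13 ganglion cell genes passed. Among 11 bipolar genes Isl1, a factor of ON bipolar and other inner cells, fell by 0.50 ± 0.08. Among 14 amacrine and horizontal genes Th, the enzyme of dopamine synthesis, rose by 0.58 ± 0.13, and the calcium buffer Calb1 and the cytoskeletal gene Septin4 fell by 0.68 ± 0.13 and 0.24 ± 0.07. The call on Septin4 (adjusted p = 0.048) was lost without any 1 of most single arrays, where it reached 0.098. Of 13 endothelial and pericyte genes 1 passed, the receptor Flt1 (0.43 ± 0.12, adjusted p = 0.048), and this too was lost without any 1 of most single arrays (up to 0.103).

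The shares lower among genes of energy metabolism are to be read against 2.18% of all named genes. Of 30 subunits of NADH dehydrogenase only Ndufa4, which is now placed with cytochrome c oxidase, passed, with a fall of 0.31 ± 0.08. Of 26 genes of cytochrome c oxidase and ATP synthase, Cox7b and Atp5mg fell by 0.60 ± 0.17 and 0.55 ± 0.15 (adjusted p = 0.045 and 0.046), and these calls were lost without any 1 of most single arrays (up to 0.0978 and 0.0987) and without the 4 arrays highest for lens markers. Of 20 measured mitochondrial carriers 1 was higher, 2 were lower and 17 did not pass, with a median difference of -0.022. The 1 that was higher was Slc25a30, a carrier of the mitochondrial inner membrane. It ran from 8.41 to 10.11 (median 9.15) with light and from 6.56 to 7.58 (median 6.86) without, and rose by 2.28 ± 0.21 (4.85-fold, adjusted p = 1.2e-06). Without light Slc25a30 was between 7.36 and 7.58 in PBM and between 6.56 and 6.87 in control and saffron. With light it was between 8.41 and 8.98 in PBMLD and between 8.87 and 10.11 in LD and SafLD. Its relatives Slc25a10 and the uncoupling protein Ucp2 fell by 0.61 ± 0.12 and 0.43 ± 0.11. Of 20 mitosis and cell cycle genes the spindle motor Kif11 rose by 2.11 ± 0.26 and the replication factor Mcm6 by 0.28 ± 0.07. Single arrays left out took the adjusted p of Ucp2 to 0.0713 and of Mcm6 to 0.0775. Of 17 clock genes only Tef, a clock output factor, passed (-0.31 ± 0.08), and not without control 1 or control 2 (adjusted p up to 0.0551). None of 20 proteasome or 14 sterol synthesis genes passed.

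Some of the largest and steadiest increases belonged to no list. Rps6ka2, a kinase downstream of ERK, stood between 10.32 and 10.68 (median 10.58) on light-exposed arrays and between 8.86 and 9.34 (median 9.08) on unexposed ones. The gap between the ranges was wider than either range, and it rose by 1.45 ± 0.08 (2.72-fold, adjusted p = 1e-09). Kremen1, a receptor for inhibitors of Wnt signaling, rose by 1.58 ± 0.12, by 1.64, 1.56 and 1.54 in the LD, PBMLD and SafLD pairs. Ahr, the aryl hydrocarbon receptor, rose by 1.49 ± 0.12 and the imprinted gene Mest by 1.4 ± 0.11. Lad1, the gene of ladinin 1, and Depdc7 rose by 1.90 ± 0.23 and 2.01 ± 0.22, and the other probe set of Lad1 differed by 1.39. All 6 genes had ranges that did not overlap.

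The genes that the study took to quantitative PCR were listed as 14, because its assay list names Smarcd1 where its text names Smarcad1 and both were kept. Of the 14, 8 were higher and 4 lower, but they were chosen on these samples and are no independent evidence of direction. Besides those above, Crot, which handles fatty acids in peroxisomes, rose by 0.78 ± 0.11. The angiotensin precursor Agt fell by 0.76 ± 0.11 and the chromatin gene Smarcd1 by 0.80 ± 0.10. In the LD, PBMLD and SafLD pairs Crot was 0.97, 0.33 and 1.04, and Agt was -1.14, -0.33 and -0.80. Neither passed in the PBMLD pair. Limma's test of a difference of the light effect between pretreatments did not pass for either (adjusted p = 0.39 and 0.44). Smarcad1 (0.17 ± 0.08, adjusted p = 0.28) and the fatty acid binding protein Fabp5 (0.12 ± 0.33, adjusted p = 0.92) did not pass. Fabp5 was 1.15, 0.18 and -0.98 in the LD, PBMLD and SafLD pairs, where the lens markers differed by 0.874, 0.426 and -0.661.

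The 3 pairs share no arrays, so a gene picked in 1 pair can be looked up in the others. Of 136 probe sets called higher in LD against control (0.466% of all), 132 were also higher in both other pairs and 24 were called in both. All 31 called higher in PBMLD against PBM (0.106%) were higher in both others, and of 117 called higher in SafLD against saffron (0.4%) 107 were. Over all probe sets, 26.6% to 28.1% were higher in both of the other pairs. Of the 19 called lower in LD against control (0.065%) all 19 were lower in both others, and of the 12 in PBMLD against PBM (0.0411%) 11 were. SafLD against saffron differed here, since of its 124 lower calls (0.424%) only 27 (21.8%) were lower in both others, where 30.5% of all probe sets were. The median difference of those 124 was 0.0923 in the LD pair and -0.131 in the PBMLD pair. The lens markers differed by 0.874, 0.426 and -0.661 in the LD, PBMLD and SafLD pairs, and their part in these calls was not tested.

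Called in every pair were 24 probe sets for higher and 3 for lower, and the 24 stood for 22 named genes. They included Asns, Tars1, Slc7a1, Mthfd2, Trib3 and Gdf15 of the amino acid group, Atf3, Jun and Zfp36 of the early genes, and Stat3, Socs3, Cish, Cebpd, Irf9 and Gfap of the cytokine and glial groups. No chemokine was among them, and the 3 lower were Esrrb, Plpp2 and Lamb3. All 109 higher and all 12 lower calls of the pooled comparison had the same direction in each pair, and 54 and 6 of them were more than 2-fold in each, which the choice by the average of these pairs largely fixes. The median of the 109 was 1.73 for the LD pair, 1.05 for the PBMLD pair and 1.39 for the SafLD pair, and that of the 12 was -1.19, -1.18 and -1.13.

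**Figure D4:**
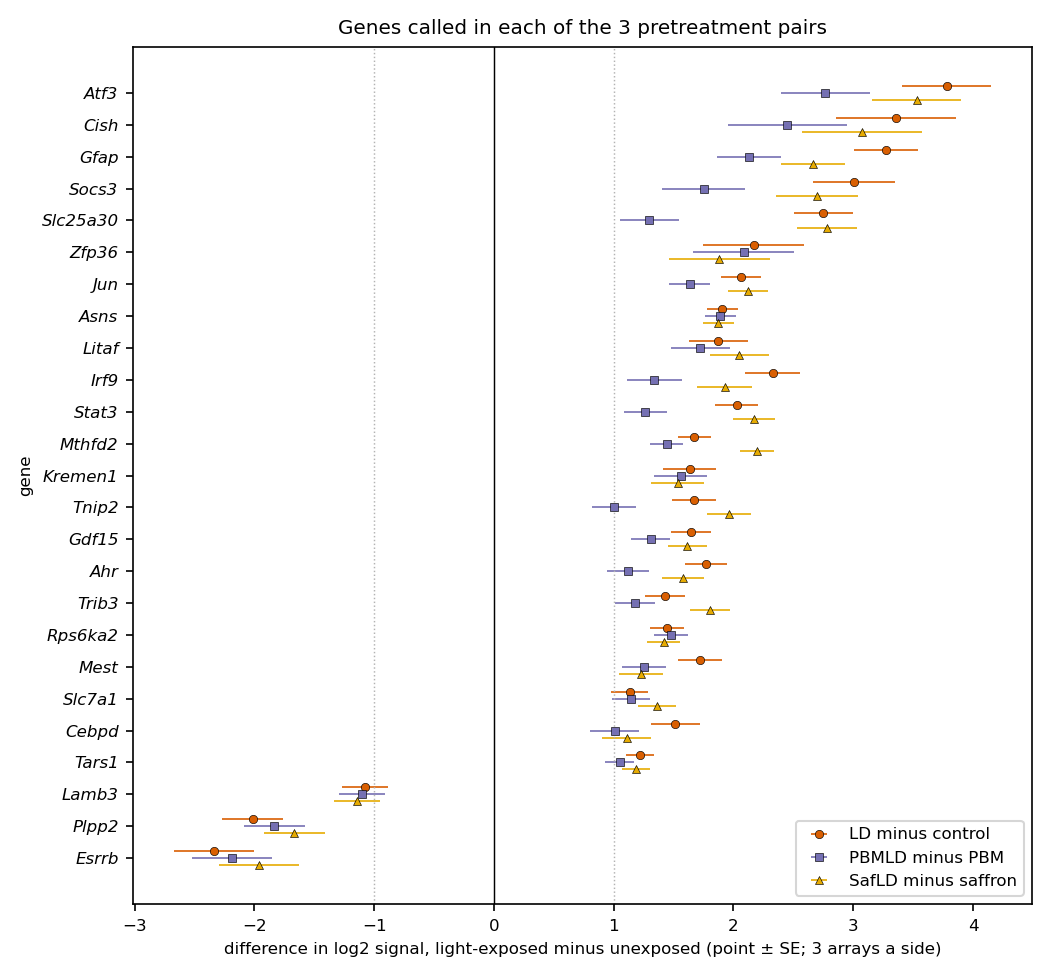
Difference in log2 signal of the 25 named genes called in each of the 3 pairs, with SE, for LD minus control, PBMLD minus PBM and SafLD minus saffron. Asns, Rps6ka2 and Kremen1 lie at nearly the same value in the 3 pairs, while Slc25a30, Gfap and Socs3 are lowest in the PBMLD pair.

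The retinas of 1 group differed more from each other with light than without for most genes that rose. Over all probe sets the median SD within groups was 0.211 log2 units in the exposed groups and 0.181 in the unexposed ones, and it was larger with light in 62.8%. Over the 109 higher calls it was 0.53 with light and 0.215 without, and larger with light in 97 of 109. Lists differed in this. Among members that passed as higher, the median SD with light and without was 0.199 and 0.173 for the 16 ATF4 genes, 0.223 and 0.116 for the 10 synthetases, 0.609 and 0.264 for the 12 interferon genes and 0.945 and 0.262 for the 9 chemokines. Over all 783 probe sets that were higher it was 0.229 with light and 0.168 without. Members were taken for a high signal with light, and these spreads are a description.

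**Figure D5:**
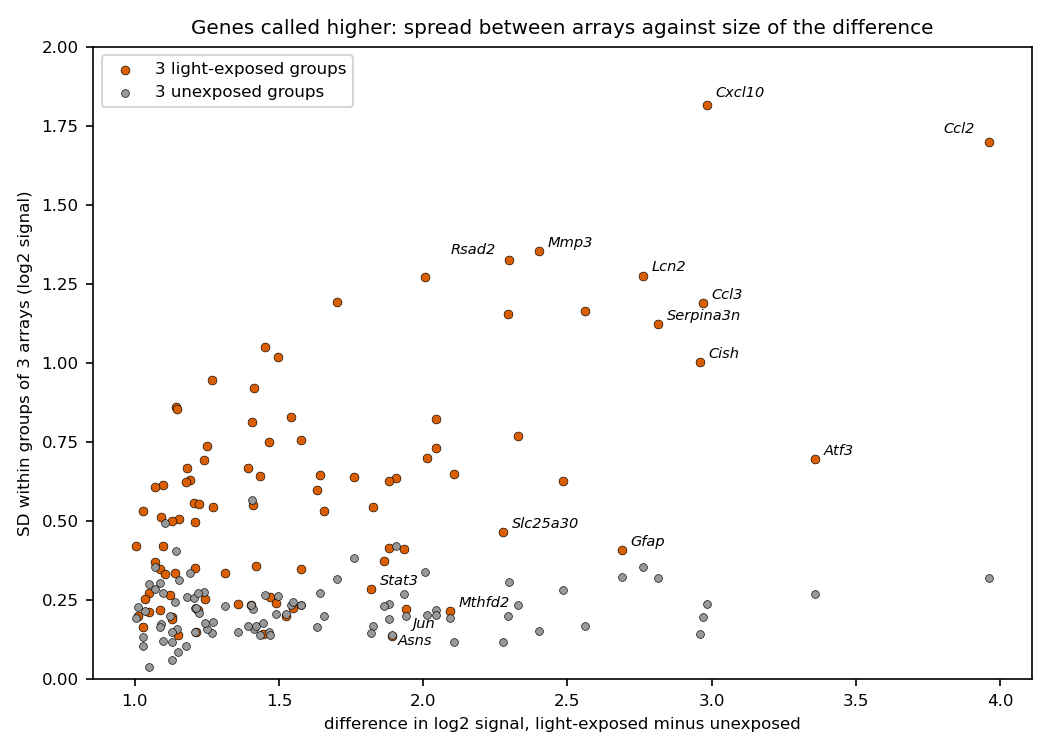
SD of log2 signal within groups of 3 arrays against the difference, light-exposed minus unexposed, for the 93 named genes called higher, with the exposed groups in orange and the unexposed in grey. Cxcl10 and Ccl2 have exposed SDs of 1.82 and 1.70, while Asns, Jun and Mthfd2 have exposed SDs near those of the unexposed groups.

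A test of whether the light effect itself differed between pretreatments passed for 44 probe sets (0.151%), of which 3 had a gene symbol and none was among the 121 pooled calls. The count was 106 without LD 2, 74 without PBMLD 1 and 134 with array weights, and the overlap with the pooled calls was not counted in those fits. Ldb2, a cofactor of LIM-domain factors, was -0.36 in the LD pair, 0.82 in the PBMLD pair and -0.34 in the SafLD pair (adjusted p = 0.0012). Its level was between 8.06 and 8.32 on the exposed arrays. Among the unexposed arrays it was between 7.27 and 7.61 in PBM and between 8.29 and 8.62 in control and saffron. Gpat3, an enzyme of lipid synthesis, was 0.08, -0.50 and 0.56 in these pairs (adjusted p = 0.02). Without light Gpat3 was between 5.20 and 5.51 in PBM and between 4.60 and 4.68 in saffron. With light it was between 4.70 and 5.02 in PBMLD and between 5.09 and 5.28 in SafLD. Defb10, a defensin, was 0.13, -0.44 and 0.66 in the 3 pairs (adjusted p = 0.036). Gpat3 and Defb10 were below the array medians, which were between 6.122 and 6.195. That the other genes missed this test does not show that light changed them equally in the 3 pairs. Across all 29214 probe sets, which are not independent replicates, the differences of the LD pair had a Pearson r of 0.409 with those of the PBMLD pair (Spearman rho 0.259) and of 0.374 with those of the SafLD pair (rho 0.269). Between the PBMLD and SafLD pairs r was 0.176 and rho 0.0441.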

How the data were processed

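Retinal RNA of 18 rats (6 groups of 3) was hybridised to Affymetrix Gene 1.0 ST arrays. The deposited values are log2 signals that the authors made with RMA in Affymetrix Expression Console 1.1.2800.19935, per the submitters' notes, with the build behind the annotation not stated in the sources used here. Of 29214 probe sets 15310 had 1 gene symbol, 323 had several and 13581 had none. The comparison was fitted with limma 3.58.1 in R 4.3.3 with light as the effect and pretreatment as a block (14 residual degrees of freedom), and p-values were Benjamini-Hochberg adjusted over all probe sets. A call needed an adjusted p below 0.05 and more than 2-fold. Where the call on a single gene is said to be lost, the adjusted p alone is meant, with no fold limit. Gene lists took the brightest probe set of a gene, and no signal was set against that of another probe set. Named genes were the largest and steadiest calls without overlap, the 4 largest changes of each list, the genes of the study's quantitative PCR, the genes called in every pair and those whose light effect differed between pretreatments. Members and lists were chosen with earlier results of these data known. The script was tested on simulated data. Alternatives covered normalization, filter, moderation, array weights, the blocking terms, the lens level, the methods' t-test and each array left out. Promoters are the 250 bases before each start in RefSeq (GRCr8), searched on both strands. The number of arrays limits the precision.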

Additional observations from a re-analysis of the deposited data

Results flagged for a closer look

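In 18 of 244 groups of 9 arrays, 1 array stood apart, its gap to the nearest other array taking more than 0.493 of the range, and chance alone flags about 1 in 20 groups. PBMLD 1 stood low among the light-exposed arrays for Csf1 (5.16), Lcn2 (7.49), Nfkb2 (5.55) and Tnfrsf1a (5.8). LD 3 stood low for Nrl (9.82), Reep6 (9.63), Rom1 (10.7) and Slc24a1 (9.9). PBMLD 2 stood low for Asns (9.85) and Rdh12 (9.12), and SafLD 1 stood high for Aqp1 (9.37). Among the unexposed arrays, saffron 2 stood low for Rbp3 (11.72), Reep6 (11.44) and Slc25a10 (8.0) and high for Smarcad1 (9.11), saffron 3 stood high for Csf1 (6.55), and control 1 stood high for Dnajb9 (8.18) and Rpe65 (5.68).

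The light effect of 3 named genes differed between pretreatments by limma's test of that difference, with adjusted p = 0.0012 for Ldb2, 0.0203 for Gpat3 and 0.0359 for Defb10. Ldb2 passed with each array left out in turn, whereas Gpat3 did not in 7 such fits and Defb10 in 12.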

How the results depend on the processing

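With no fold limit 783 probe sets were higher and 498 lower, and in the pairs 325 (LD against control, 155 with the limit), 96 (PBMLD against PBM, 43 with it) and 612 (SafLD against saffron, 241 with it) were called. Without the PBMLD and PBM arrays 167 were higher and 20 lower, without the LD and control arrays 19 were lower, and with the lens level as covariate 27 were lower. Array weights gave 66 calls for PBMLD against PBM, 364 for SafLD against saffron and 134 probe sets for the difference between pretreatments, against 44. The PBMLD pair fitted alone gave 20 calls. The cause of these shifts was not tested.

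Leaving out 1 array at a time gave 98 (without LD 3) to 121 (without PBMLD 1) higher calls and 11 to 16 lower. It gave 91 (without LD 3) to 293 (without LD 1) for LD against control, 26 (without PBM 3) to 95 (without PBMLD 1) for PBMLD against PBM and 148 (without SafLD 3) to 331 (without SafLD 1) for SafLD against saffron. The difference between pretreatments passed for 35 (without SafLD 3) to 106 (without LD 2) probe sets. Fabp5, which did not pass, changed sign to -0.232 with the lens level as covariate, -0.469 without the 4 arrays highest for lens markers and -0.399 without the LD and control arrays, and ranged from -0.109 to 0.292 with 1 array left out. Over the 119 genes named by their light effect or its difference, 3828 of the alternative values kept direction and call, 200 lost the call, 1 gained it and 5 reversed. Besides the genes noted in the text, calls on Calb1, Ccl7, Cngb3, Crym, Csf1, Dnajb1, Dnajb9, Fas, Gadd45g, Gpx3, Hes1, Hsph1, Il1b, Isl1, Mef2d, Ndufa4, Nfkb2, Opn1sw, P2ry12, Pde6h, Rbp3, Rdh12, Slc24a1, Slc25a10, Th and Timp1 were lost when the arrays of at least 1 pretreatment were left out.

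The labels number the replicates of each group, but same-numbered arrays did not deviate together throughout (correlations from -0.237 to 0.306), so the numbers were not taken as pairs. With the replicate block 109 probe sets were higher and 12 lower, 166, 43 and 241 were called in the LD, PBMLD and SafLD pairs, and 44 differed between pretreatments.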
